A study of Mus musculus with 12 samples.

Results

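The genes described here are the stress-response regulator NRF2, encoded by Nfe2l2, and 9 genes that it is known to control or that make and recycle glutathione. They were chosen by symbol as Nfe2l2, Nqo1, Hmox1, Txnrd1, Srxn1, Gclc, Gclm, Gss, Gsr and Slc7a11, and all 10 were found among the 21004 genes of the deposited table. Of the 10, 9 passed the filter for testing, which was 1 FPKM or more in at least 3 libraries. FPKM, a fragment count scaled by transcript length and by library size, is a level per length, so levels of different genes can be set side by side.

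RNA of whole liver was sequenced from outbred ICR mice 8 weeks old. The 4 groups, with 3 libraries each, were a control group, mice given busulfan, mice given L.J. (10 mg/kg) and mice given both agents. Busulfan alkylates and crosslinks DNA. The labels do not spell out L.J., and how it relates to the FMT named in the design text is not given, nor are the dose of busulfan, the sex of the mice or the time of sampling. The title of the series speaks to the question whether L.J. offsets the effects of busulfan on the liver.

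NRF2 is a transcription factor that KEAP1 holds in the cytoplasm and marks for degradation under resting conditions. Electrophiles and oxidants modify KEAP1, and NRF2 then enters the nucleus, pairs with a small MAF protein and binds antioxidant response elements near genes of detoxification and thiol chemistry. Glutathione, the main small thiol of the hepatocyte, is built from glutamate, cysteine and glycine in a pair of enzymatic steps, is oxidised in use and is reduced again with NADPH. Busulfan itself is conjugated to glutathione in the liver.

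The libraries differed in ways that the groups did not explain. Mup genes, which encode major urinary proteins, held 1.36% and 0.0956% of all FPKM in L.J. replicates 1 and 3, against 23.9% in L.J. replicate 2 and 11.7% to 36.7% in the other 9 libraries. The summed level of 16 acute-phase genes was 59780 and 51927 FPKM in L.J. replicates 1 and 3, 17672 FPKM in L.J. replicate 2 and at most 16155 FPKM elsewhere. Fold changes of the tested genes that involve the L.J. group are therefore given also without L.J. replicate 2 and without L.J. replicates 1 and 3. In the latter fit the L.J. group is 1 library, which is assumed to vary like the other groups. The libraries left out were picked by their values, so p-values of these reduced fits are a description and not a fair test. The 6 hepatocyte markers, which check the label of liver, summed to 27752 FPKM or more in every library. Nothing in the labels says that replicates were separate animals, so the p-values speak only to the spread among these libraries, whose depth the files do not give.

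By level, Gclc and Gclm stood highest, with means over the 12 libraries of 131 and 82.5 FPKM, above 95.4% and 93.1% of all genes tested. Txnrd1 at 30.4 FPKM, Nfe2l2 at 28.2 FPKM, Gss at 20.7 FPKM, Gsr at 19.7 FPKM, Hmox1 at 17.7 FPKM and Srxn1 at 11.2 FPKM followed. Nqo1 was low at 2.18 FPKM, above 18.5% of genes tested, and Slc7a11 never exceeded 0.02 FPKM. The genes also differed in how far the libraries of a group lay apart. Within groups the SD on the log2(FPKM + 1) scale was 0.620 for Hmox1, 0.470 for Nqo1 and 0.324 for Gclc. The other 6 tested genes ranged from 0.155 for Gclm to 0.244 for Gsr, and the median over all genes tested was 0.200.

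**Figure D1:**
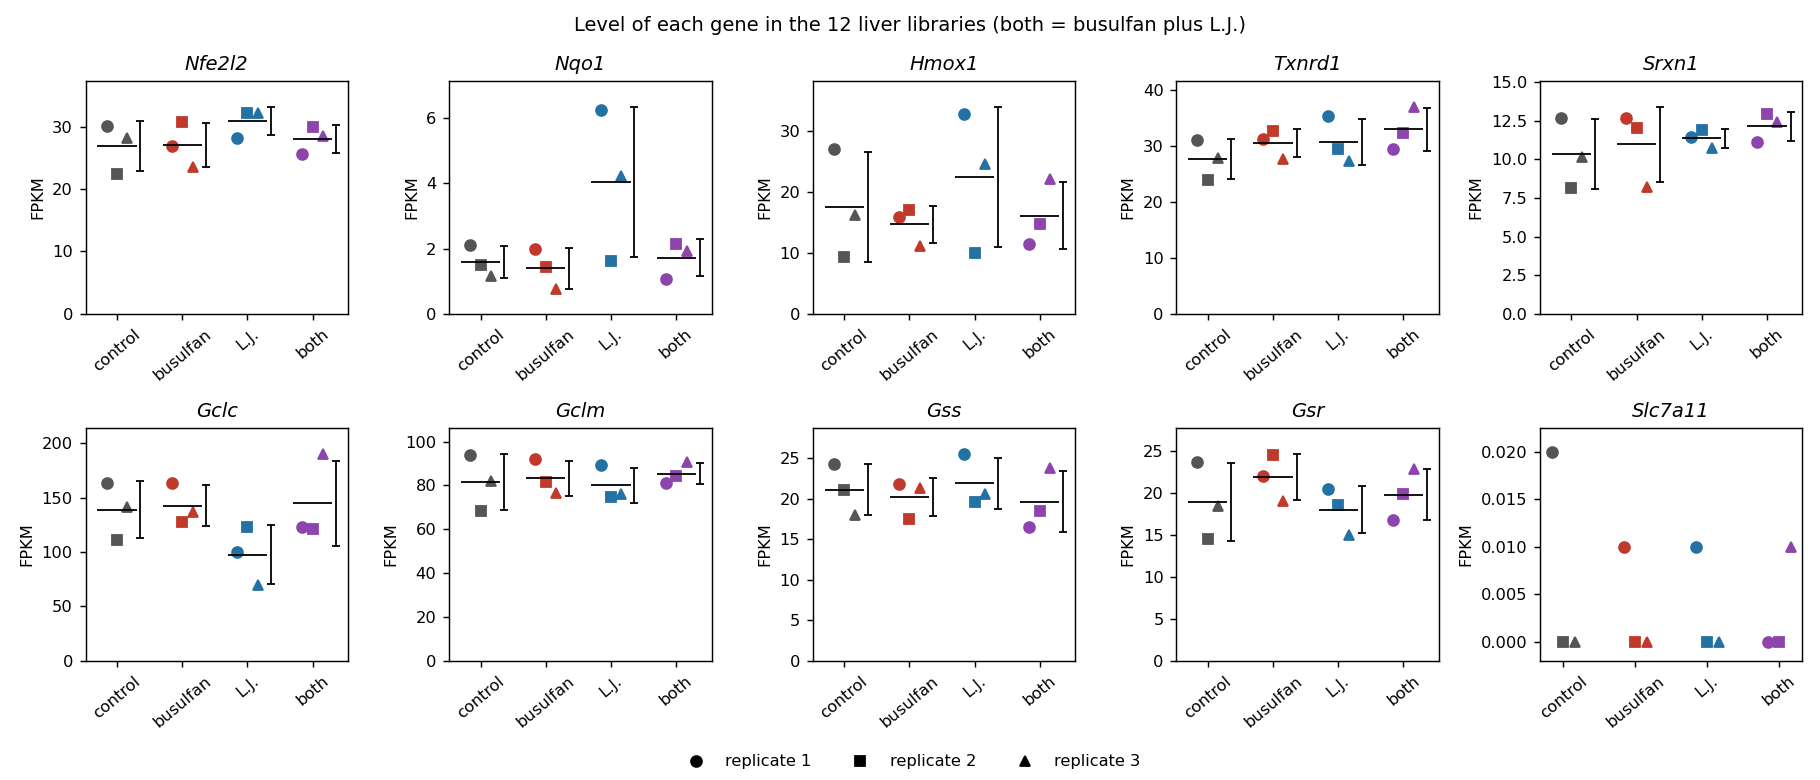
FPKM of each of the 10 genes (vertical axes, a separate scale for each gene) in the 4 groups, with a symbol for each replicate; lines are group means and bars are ± SD over 3 libraries, left out for Slc7a11. Nqo1 reached 6.24 and 4.24 FPKM in L.J. replicates 1 and 3, while L.J. replicate 2 was at 1.63 FPKM among the controls.

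Nfe2l2, on mm10 chromosome 2 from 75675513 to 75704663, was steady. The control libraries had 30.16, 22.35 and 28.23 FPKM (26.9 ± 4.07, SD, n = 3) and the busulfan libraries 26.96, 30.75 and 23.59 FPKM (27.1 ± 3.58). Levels were 28.26, 32.26 and 32.19 FPKM with L.J. (30.9 ± 2.29) and 25.63, 29.97 and 28.45 FPKM with both agents (28.0 ± 2.20). Group means followed the order control, busulfan, both and L.J., but all 4 groups overlapped and no neighbours in this order differed beyond their spread. In L.J. versus control the log2 fold change was 0.20 (95% interval -0.11 to 0.51), and in busulfan versus control it was 0.01 (-0.29 to 0.32). NRF2 protein is controlled largely by degradation, which these RNA levels do not show.

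The letters before the start sites of these genes are shown for 4 of them, to set the regulator and 3 of its targets side by side. RefSeq windows of GRCm38.p6, the coordinates of mm10, were matched for 7 of the 10 genes, and the 250 bases before each start were searched on both strands. The search used TGACNNNGC, a core of the antioxidant response element, and TGACTCA, the AP-1 site, with which it can overlap as TGACTCAGC. Capitals mark the matches, read 5′ to 3′ on the strand of the gene; a match on the other strand appears as its reverse complement. Positions count back from the start site. The Nfe2l2 stretch is chr2:75704794-75704913 on the minus strand, bases -250 to -131, the Txnrd1 stretch is chr10:82859056-82859175 on the plus strand, bases -150 to -31 of its second listed start, and the Srxn1 stretch is chr2:152105394-152105513 on the plus strand, bases -130 to -11. The Nqo1 stretch is chr8:107403216-107403335 on the minus strand, bases -130 to -11.
Nfe2l2: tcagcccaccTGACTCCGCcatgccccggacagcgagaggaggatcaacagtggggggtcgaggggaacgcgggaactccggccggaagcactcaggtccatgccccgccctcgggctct
Txnrd1: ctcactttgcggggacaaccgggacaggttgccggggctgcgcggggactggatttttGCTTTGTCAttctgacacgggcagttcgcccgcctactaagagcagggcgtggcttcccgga
Srxn1: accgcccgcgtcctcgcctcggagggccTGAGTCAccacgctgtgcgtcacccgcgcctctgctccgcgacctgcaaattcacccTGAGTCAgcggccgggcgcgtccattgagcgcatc
Nqo1: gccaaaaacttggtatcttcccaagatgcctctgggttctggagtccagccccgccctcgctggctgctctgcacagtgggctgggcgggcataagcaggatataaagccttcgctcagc

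TGACNNNGC was found once each before Nfe2l2 (bases -240 to -232), Txnrd1 (-92 to -84) and Gclm (-134 to -126). TGACTCA was found at 2 places before Srxn1, at -102 to -96 and -45 to -39. Neither was found in the windows of Nqo1, Gss and Slc7a11, which says only that these letters are not in these 250 bases. Other spellings of the antioxidant response element were not searched, in Srxn1 or elsewhere. Of all 32851 windows, 10.2% held TGACNNNGC, 4.46% held TGACTCA and 0.390% held the overlapping form. These matches are a description of sequence and mark no measured binding.

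Nqo1 encodes a quinone reductase and is one of the most used readouts of NRF2; it lies on chromosome 8 from 107388225 to 107403205. The control libraries had 2.12, 1.49 and 1.15 FPKM (1.59 ± 0.492, SD, n = 3) and the busulfan libraries 1.99, 1.42 and 0.75 FPKM (1.39 ± 0.621). With L.J. the levels were 6.24, 1.63 and 4.24 FPKM (4.04 ± 2.31), and with both agents 1.07, 2.14 and 1.93 FPKM (1.71 ± 0.567). L.J. replicates 1 and 3 thus lay above all other libraries, while L.J. replicate 2 lay inside the control range.

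Nqo1 gave the largest fold change of the 9 tested genes in L.J. versus control, a log2 value of 0.86 (SE 0.33, 95% interval 0.14 to 1.58), and did not pass the limma test (adjusted p = 0.157). With both agents against L.J. alone it was -0.80 (-1.52 to -0.07; limma adjusted p = 0.325). Both values hung on which L.J. libraries were kept. When L.J. replicate 2 was left out, Nqo1 passed in both comparisons, with 1.27 (limma adjusted p = 0.0116) and -1.21 (limma adjusted p = 0.0168). With replicates 1 and 3 left out instead, the log2 values were 0.04 and 0.02. Over all alternatives the adjusted p of Nqo1 ran from 0.0116 to 0.991 in the first comparison and from 0.0168 to 1.00 in the second. The interaction, which asks whether L.J. acted differently with busulfan, was -0.66 (SE 0.47; limma adjusted p = 0.714).

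The L.J. libraries that were high in Nqo1 were also those high in acute-phase and neutrophil genes. Neutrophil markers summed to 152.51 and 86.16 FPKM in L.J. replicates 1 and 3, to 15.08 FPKM in L.J. replicate 2 and to between 9.13 and 10.34 FPKM in the controls. Of the 10 markers in this sum, only 4 passed the filter for testing, and the others reached 1 FPKM in fewer than 3 libraries. Genes of sex-biased expression in mouse liver moved with the same libraries. The 12 male-biased genes summed to 1664.86 and 548.49 FPKM in L.J. replicates 1 and 3 and to 5446 FPKM or more in the other 10 libraries, and the 14 female-biased genes to 439.72 and 1586.18 FPKM there and to at most 107.55 FPKM in the others. The part of neutrophils, of the acute-phase state or of sex-biased expression in the Nqo1 level was not tested. In RNA from whole tissue, fewer cells of a type and less RNA per cell cannot be told apart.

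Hmox1 encodes heme oxygenase 1, which breaks down heme and is abundant in macrophages that take up red cells; it lies on chromosome 8 from 75093618 to 75100593. The control libraries had 27.04, 9.22 and 16.22 FPKM (17.5 ± 8.98, SD, n = 3), and the busulfan libraries 15.78, 17.01 and 11.13 FPKM (14.6 ± 3.10). With L.J. they had 32.75, 9.98 and 24.49 FPKM (22.4 ± 11.5), and with both agents 11.44, 14.7 and 22.14 FPKM (16.1 ± 5.48). The groups overlapped throughout, and the control libraries alone spanned most of the range. In L.J. versus control the log2 fold change was 0.31 (95% interval -0.62 to 1.25; limma adjusted p = 0.674), and in busulfan versus control -0.14 (-1.08 to 0.79). The direction in the former depended on the L.J. libraries kept, with 0.78 (limma adjusted p = 0.161) without replicate 2 and -0.63 (limma adjusted p = 0.886) without replicates 1 and 3. Both agents against L.J. alone gave -0.35 with all libraries, -0.83 without replicate 2 and 0.59 without replicates 1 and 3, and none of these passed.

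Markers of Kupffer cells and macrophages moved library by library alongside Hmox1. All 12 markers were in the table and none was under 0.1 FPKM throughout. Their sum was 248.95, 124.63 and 152.92 FPKM in the controls and 418.53, 188.56 and 352.86 FPKM with L.J., and in both groups replicate 1 was highest and replicate 2 lowest, as for Hmox1. With busulfan the sum was 227.08, 261.49 and 170.58 FPKM, and with both agents 150.66, 273.47 and 362.99 FPKM, again in the order of the Hmox1 values. This was not particular to macrophage markers. Sinusoidal endothelial markers summed to 58.61, 37.09 and 51.27 FPKM in the controls and 83.74, 43.53 and 60.87 FPKM with L.J. These markers and those of stellate cells took the order of Hmox1 in the controls, with L.J. and with both agents, but not with busulfan. Erythroid markers were highest in control replicate 1, at a sum of 1527.75 FPKM, with 282.52 to 967.63 FPKM in the other 11 libraries. The part of these cells in the Hmox1 level was not tested.

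**Figure D2:**
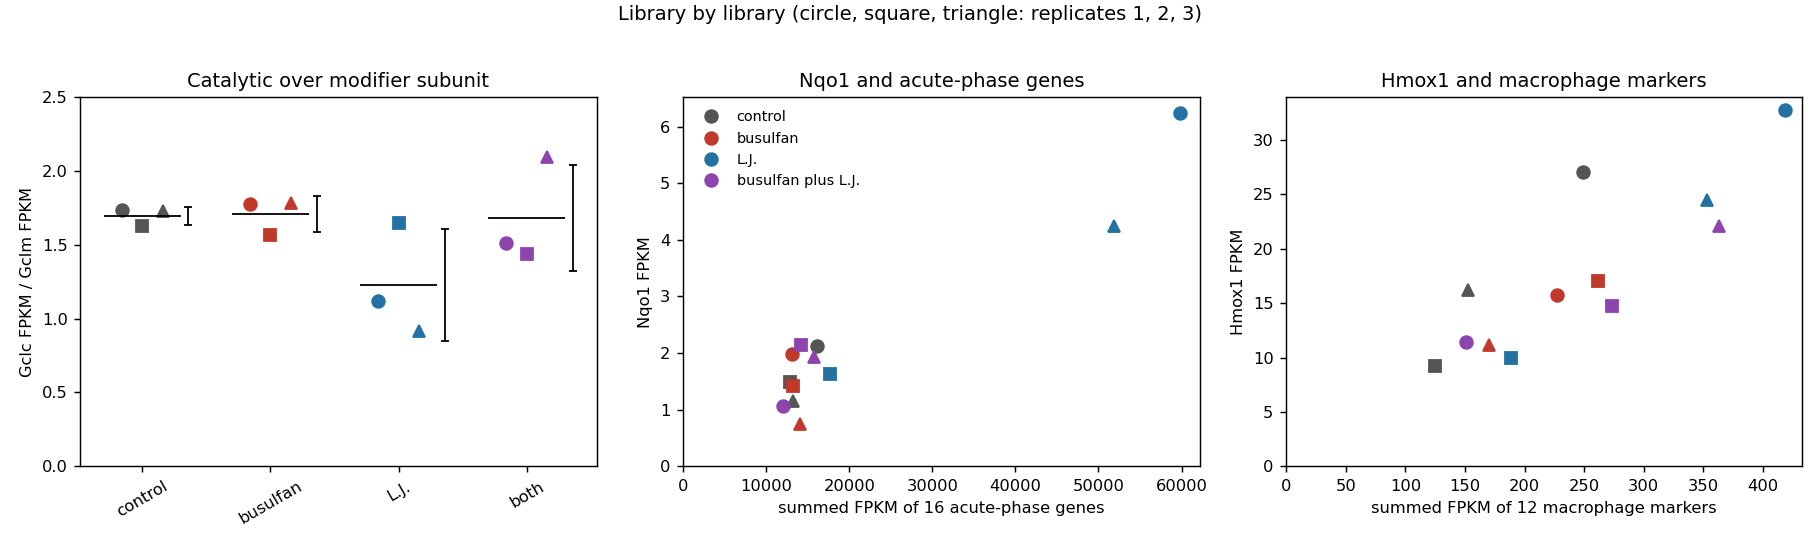
Left, Gclc FPKM divided by Gclm FPKM in each library by group, with mean ± SD over 3 libraries; middle, Nqo1 FPKM against the summed FPKM of 16 acute-phase genes; right, Hmox1 FPKM against the summed FPKM of 12 macrophage markers. L.J. replicates 1 and 3 (blue circle and triangle) stand apart on the left at 1.12 and 0.914 and in the middle at 6.24 and 4.24 FPKM.

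Txnrd1 and Srxn1 serve the thioredoxin branch of thiol chemistry. Txnrd1 encodes the cytosolic thioredoxin reductase, a selenoprotein, and lies on chromosome 10 from 82833951 to 82897724. Its levels were 30.98, 23.85 and 27.73 FPKM in the controls (27.5 ± 3.57, SD, n = 3) and 31.19, 32.6 and 27.69 FPKM with busulfan (30.5 ± 2.53). They were 35.2, 29.33 and 27.23 FPKM with L.J. (30.6 ± 4.13) and 29.4, 32.33 and 36.91 FPKM with both agents (32.9 ± 3.79). All groups overlapped. The mean was highest with both agents, where the log2 fold change against control was 0.25 (95% interval -0.06 to 0.56; limma adjusted p = 0.801).

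Srxn1 encodes sulfiredoxin, which repairs over-oxidised peroxiredoxins, and lies on chromosome 2 from 152105524 to 152111376. The control libraries had 12.72, 8.16 and 10.17 FPKM, the busulfan libraries 12.7, 12.04 and 8.19 FPKM, the L.J. libraries 11.44, 11.92 and 10.73 FPKM, and the libraries of both agents 11.11, 12.92 and 12.46 FPKM. The lowest control and the lowest busulfan library were almost equal, and every L.J. library lay inside the control range. Against control, both agents gave a log2 fold change of 0.23 (-0.15 to 0.61; limma adjusted p = 0.875).

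Gclc and Gclm encode the catalytic and the modifier subunit of glutamate-cysteine ligase, the rate-limiting enzyme of glutathione synthesis. Gclc, on chromosome 9 from 77754535 to 77794489, had 163.17, 111.18 and 141.6 FPKM in the controls (139 ± 26.1, SD, n = 3) and 163.66, 127.46 and 136.34 FPKM with busulfan (142 ± 18.9). With L.J. it had 99.93, 123.32 and 69.33 FPKM (97.5 ± 27.1), and with both agents 122.8, 121.12 and 190.01 FPKM (145 ± 39.3). L.J. replicates 1 and 3 were the lowest of the 12 libraries, and L.J. replicate 2 lay among the controls, so the groups overlapped.

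In L.J. versus control the log2 fold change of Gclc was -0.52 (SE 0.24, 95% interval -1.05 to 0.0013; limma adjusted p = 0.216). With both agents against L.J. alone it was 0.57 (0.04 to 1.10; limma adjusted p = 0.331), and the interaction was 0.52 (SE 0.34; limma adjusted p = 0.712). Without L.J. replicate 2 these fold changes were -0.71 (limma adjusted p = 0.0675) and 0.76 (limma adjusted p = 0.0714), still short of the threshold. Without L.J. replicates 1 and 3 they were -0.15 and 0.20. Busulfan versus control gave 0.05 (-0.48 to 0.57), and adding L.J. to busulfan gave -0.00 (-0.53 to 0.52).

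Gclm, on chromosome 3 from 122245487 to 122267215, varied least of the genes tested here. It had 94.07, 68.38 and 81.95 FPKM in the controls, 92.08, 81.37 and 76.44 FPKM with busulfan, 89.16, 74.87 and 75.88 FPKM with L.J., and 81.18, 84.21 and 90.78 FPKM with both agents. All 4 groups overlapped, and the highest library was 1.38 times the lowest. In L.J. versus control the log2 fold change was -0.02 (95% interval -0.33 to 0.29; limma adjusted p = 0.948). Exons of Gclm overlap those of Gm6061 on the same strand and Gm17494 on the opposite strand, and reads in the shared stretches cannot be told apart where strand use is not given.

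The ratio of Gclc to Gclm, taken after the values were seen and given with no test, does not depend on library scaling. It was 1.73, 1.63 and 1.73 in the controls (1.70 ± 0.0609, SD, n = 3) and 1.78, 1.57 and 1.78 with busulfan (1.71 ± 0.124). It was 1.12, 1.65 and 0.914 with L.J. (1.23 ± 0.378) and 1.51, 1.44 and 2.09 with both agents (1.68 ± 0.358). L.J. replicates 1 and 3 had the lowest ratios and replicate 3 of both agents the highest.

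Gss encodes glutathione synthetase, which adds glycine in the last step, and lies on chromosome 2 from 155563181 to 155592810. Its levels were 24.32, 21.04 and 17.97 FPKM in the controls, 21.77, 17.5 and 21.34 FPKM with busulfan, 25.53, 19.57 and 20.56 FPKM with L.J., and 16.55, 18.53 and 23.8 FPKM with both agents. Group means lay between 19.6 and 21.9 FPKM, closer together than the libraries of any group. The largest log2 fold change was -0.16 (95% interval -0.52 to 0.20), for both agents against L.J. alone. Exons of Gss overlap those of Acss2, Gssos1 and Gssos2 on the opposite strand, with the same limit as for Gclm.

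Gsr encodes glutathione reductase, which restores reduced glutathione with NADPH, and lies on chromosome 8 from 33653238 to 33698162. The control libraries had 23.77, 14.52 and 18.46 FPKM (18.9 ± 4.64, SD, n = 3) and the busulfan libraries 22.04, 24.6 and 19.09 FPKM (21.9 ± 2.76). L.J. libraries had 20.53, 18.55 and 14.97 FPKM (18.0 ± 2.82), and those of both agents 16.77, 19.91 and 22.82 FPKM (19.8 ± 3.03). The groups overlapped. In busulfan versus control Gsr had the largest log2 fold change of the 9 genes, 0.22 (95% interval -0.18 to 0.63).

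Slc7a11 encodes the cystine-glutamate exchanger xCT, which imports cystine for glutathione synthesis in many cultured and tumour cells; it lies on chromosome 3 from 50364936 to 50499087. It was listed at 0 in 8 of 12 libraries, at 0.02 FPKM in control replicate 1, and at 0.01 FPKM in busulfan replicate 1, L.J. replicate 1 and replicate 3 of both agents. No group stood out, and it was not tested. The deposited values are given to the second decimal, so these entries are at or next to the smallest step of the table.

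Across comparisons, none of the 9 tested genes passed the adjusted threshold of 0.05. In busulfan versus control 0 of 9 passed limma (background 0% of 10786 genes tested), 0 had an unadjusted p under 0.05 (1.29%), and 0 had groups that did not overlap (5.92%). In L.J. versus control 0 passed (0.250%), 1 had an unadjusted p under 0.05, which was Nqo1 (23.2%), and 0 did not overlap (20.8%). L.J. versus control had the most genes called in the whole table, and the 1 of 9 at the unadjusted level is not above its background.

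For both agents versus control 0 passed limma (0%), 0 had an unadjusted p under 0.05 (6.93%) and 0 did not overlap (11.8%). For busulfan plus L.J. versus busulfan, the comparison closest to the question in the title, 0 passed (0%), 0 had an unadjusted p under 0.05 (3.73%) and 0 did not overlap (9.99%). Fold changes there ran from -0.14 for Gsr to 0.20 for Nqo1. For busulfan plus L.J. versus L.J. 0 passed (0.0278%), 2 had an unadjusted p under 0.05, Nqo1 and Gclc in opposite directions (13.6%), and 0 did not overlap (13.0%). For the interaction 0 passed (0%) and 0 had an unadjusted p under 0.05 (6.54%). Without L.J. replicate 2, 1 of the 9 passed, Nqo1, both against control (background 16.7%) and with both agents against L.J. (10.8%).

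The median log2 fold change over the 9 genes was 0.04 in busulfan versus control, the same as over all genes tested at 0.04. It was 0.14 in L.J. versus control beside 0.17 over all genes, and 0.09 for both agents against L.J. alone beside -0.13. The shift of all genes in those L.J. comparisons was 0.07 and -0.03 after the Mup genes were left out and the libraries rescaled. Relative to the median of all genes, Gclc in L.J. versus control was at -0.70 and Nqo1 at 0.69.

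**Figure D3:**
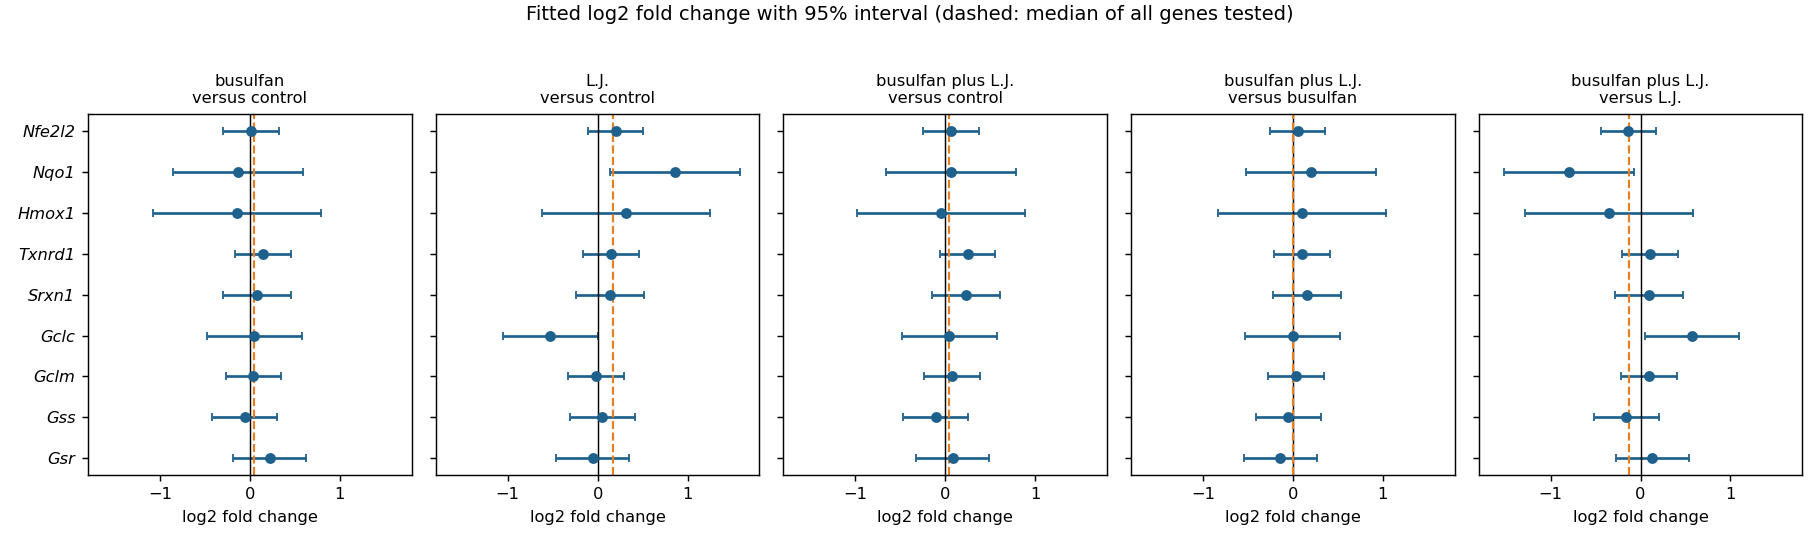
Fitted log2 fold change (horizontal axes) with 95% interval of the 9 tested genes in 5 comparisons; the dashed line is the median of all genes tested. Intervals leave out 0 for Nqo1 in L.J. versus control and for Nqo1 and Gclc with both agents against L.J. alone, before any adjustment for the number of genes.

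For the 6 other tested genes, the choice of L.J. libraries moved the fold change in L.J. versus control by less than 1 SE. Without L.J. replicate 2 and without replicates 1 and 3, it was 0.17 and 0.26 for Nfe2l2, 0.17 and 0.10 for Txnrd1, and 0.11 and 0.21 for Srxn1. It was 0.03 and -0.11 for Gclm, 0.12 and -0.09 for Gss, and -0.08 and -0.00058 for Gsr. For both agents against L.J. alone, the same 6 genes lay between -0.23 and 0.16 without replicate 2 and between -0.20 and 0.19 without replicates 1 and 3. With median scaling of the libraries, all 6 moved by more than 1 SE in L.J. versus control. The fold change was then -0.00049 for Nfe2l2, -0.05 for Txnrd1, -0.05 for Srxn1, -0.23 for Gclm, -0.15 for Gss and -0.25 for Gsr. The median over all genes tested moved as well, from 0.17 to 0.00075. None of these values passed limma.

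Over the control, busulfan and combined groups, which leave out the L.J. libraries that stood apart, most of the 9 genes tended to be high or low in the same libraries. Correlations of deviations from the group means over these 9 libraries had a median of 0.746 over 36 pairs of genes, 35 of them above 0, beside 0.288 over all pairs of genes. After the Mup genes were left out and the libraries rescaled, the median was 0.537, with 31 of 36 pairs above 0, beside a median of 0.053 over all pairs. Gss was then below 0 with Nfe2l2 (-0.73), Srxn1 (-0.39), Gsr (-0.04) and Txnrd1 (-0.01), and highest with Gclc (0.58). Nfe2l2 with Gclc was also below 0 (-0.08). These values share libraries and their scaling and are a description. The library scale touched the levels directly: control replicate 2, in which Mup genes held 35.4% of FPKM, was lowest of the 12 libraries for 6 of 9 genes as deposited, beside 27.5% of all genes tested, and for 1 of 9 after rescaling, beside 16.5%. After rescaling, L.J. replicate 3 was lowest for 4 of 9 genes, beside 11.95% of all genes tested.

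Over all 12 libraries, the gene most alike in log2(FPKM + 1) was Nid1 for Nqo1 (Pearson r = 0.983), Ankrd46 for Gclm (0.969), Rab3gap2 for Hmox1 (0.968) and Srxn1 was closest to Agpat2 (0.946). Gss was closest to Hmgxb3 (0.935), Gsr to Vcp (0.930), Gclc to Pgrmc1 (0.928), Txnrd1 to Src (0.928) and Nfe2l2 to Det1 (0.875). None of these partners was another of the 9 genes.

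The surrounding pathway was described with 7 lists of 118 further genes, of which 104 were tested. By limma, 0 of the 104 passed in any of the 6 comparisons. An unadjusted p under 0.05 was found for 1 of the 104 in busulfan versus control (1.29% of all genes tested) and 22 in L.J. versus control (23.2%). It was found for 4 with both agents against control (6.93%) and 2 with both agents against busulfan (3.73%). It was found for 24 with both agents against L.J. alone (13.6%) and 8 in the interaction (6.54%). The percentages are shares of all genes tested under the same rule, and the lists were chosen with earlier results of these data known. In busulfan versus control the medians of the lists lay between 0.01 and 0.06, beside 0.04 over all genes. In busulfan plus L.J. versus busulfan they lay between -0.08 and 0.01, beside 0.00. Spread was wider where the L.J. group entered.

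In L.J. versus control, regulators and partners of NRF2 had a median log2 fold change of 0.14, with 9 of 11 higher, beside 0.17 over all genes. Keap1, the inhibitor of NRF2, had 12.5 ± 2.29 FPKM in the controls and 14.6 ± 1.51 FPKM with L.J. (SD, n = 3), a log2 difference of 0.22 (95% interval -0.10 to 0.54). Bach1, a repressor that competes with NRF2 at its sites, had 4.21 ± 1.08 and 5.16 ± 0.841 FPKM. Neither passed limma, and 0 of the 11 genes of this list did. Sqstm1 of the same list went the other way, at 157 FPKM in the controls and 142 FPKM with L.J. Other targets of NRF2 had a median of 0.0030 (10 of 17 higher), glutathione use 0.11 (10 of 17) and cysteine supply 0.33 (12 of 14). Thioredoxins and related enzymes had -0.04 (10 of 22) and NADPH supply 0.07 (8 of 12). ATF4 is another inducer of amino acid and glutathione genes, and the list of Atf4 and its targets had 0.23 (10 of 13).

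**Figure D4:**
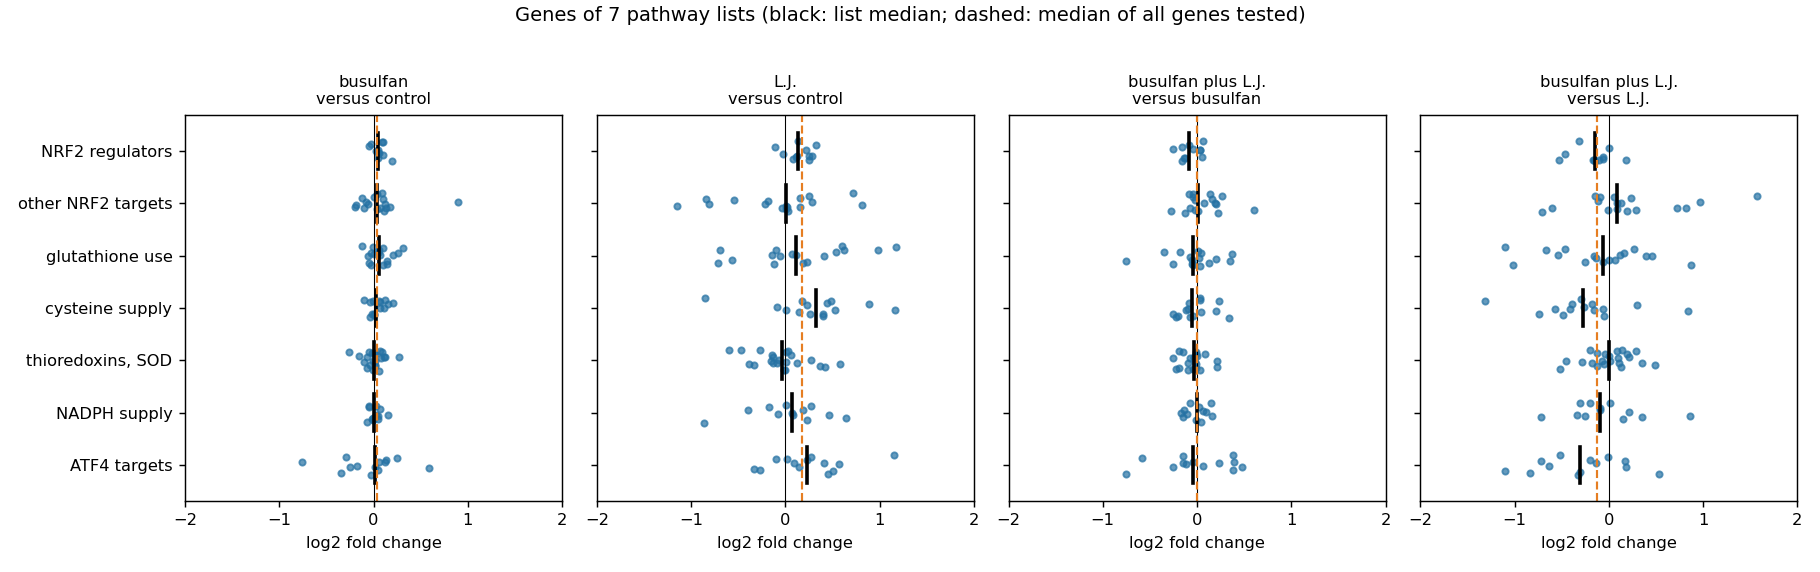
Log2 fold change (horizontal axes) of each tested gene of 7 pathway lists in 4 comparisons; black marks are list medians and the dashed line is the median of all genes tested. Points are tight in busulfan versus control and spread on both sides of 0 in the comparisons that hold the L.J. group, where cysteine supply has a median of 0.33 against control.

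With all libraries, 0 of the 104 genes passed limma in L.J. versus control. Without L.J. replicate 2, 21 of the 104 passed, beside 16.7% of all genes (14.4% higher and 2.33% lower). The 21 genes went both ways. That library was left out because of its values, so the adjusted p-values of this fit are a description and not a fair test. Of the other targets of NRF2, 1 of 17 was higher and 3 were lower. Cbr1, which encodes a carbonyl reductase, had 75.31 and 73.08 FPKM in L.J. replicates 1 and 3, 38.17 FPKM in replicate 2 and 36.01, 34.47 and 30.13 FPKM in the controls. Its log2 fold change without replicate 2 was 1.13 (limma adjusted p = 0.00115). Ephx1, the microsomal epoxide hydrolase, was at 156.39, 256.69 and 84.97 FPKM with L.J. and at 262.6, 218.93 and 323.96 FPKM in the controls, with a log2 fold change of -1.19 without replicate 2 (limma adjusted p = 0.0183). Osgin1 was at 54.14, 208.25 and 29.87 FPKM with L.J. and at 303.04, 94.22 and 131.91 FPKM in the controls, and gave -1.93 (limma adjusted p = 0.0248). Ugdh, which makes UDP-glucuronic acid, gave -0.84 (limma adjusted p = 0.0288). Known targets of NRF2 stood on both sides in L.J. replicates 1 and 3, Nqo1 and Cbr1 above and Ephx1, Ugdh and Osgin1 below the controls.

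In the same fit, 4 of 14 genes of cysteine supply were higher and none lower. Mat1a, which makes S-adenosylmethionine, was at 1390.97, 387 and 1156.25 FPKM with L.J. and at 478.32, 369.53 and 310.8 FPKM in the controls (log2 fold change 1.74, limma adjusted p = 0.0026). Cdo1, which oxidises cysteine and so takes it away from glutathione, was at 1918.4, 610.96 and 1660.1 FPKM with L.J. and at 817.05, 942.49 and 842.9 FPKM in the controls (1.04, limma adjusted p = 0.00292). Slc1a4 and Bhmt2 gave 1.28 and 0.56. The list is broader than its name, since Cdo1 uses cysteine up. The median of the list is therefore no measure of cysteine supply.

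Of glutathione use, 5 of 17 were higher, Gpx3, Ggt6, Chac1, Mgst3 and Anpep, and 1 was lower, Glo1 of the glyoxalase system, with a log2 fold change of -1.03 (limma adjusted p = 0.0101). Chac1, which degrades glutathione and is a target of ATF4, was at 4.92, 0.93 and 3.01 FPKM with L.J. and at 1.88, 2.15 and 1.17 FPKM in the controls. Cat, encoding catalase, was at 848.32, 1214.48 and 771.09 FPKM with L.J. and at 1383.85, 1364.76 and 1463.49 FPKM in the controls, and gave -0.79 (limma adjusted p = 0.00521); Msrb3 was the other of 22 in its list and was higher. Of NADPH supply, G6pdx was higher and Me1 and Rpe were lower, out of 12. Of the 13 tested genes of the ATF4 list, which holds Atf4 itself beside targets of ATF4, 3 were higher, Atf4, Chac1 and Ddit4. Chac1 is the same gene as counted above under glutathione use. Of the 11 regulators and partners 0 passed.

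With L.J. replicates 1 and 3 left out instead, the L.J. group is 1 library, so only list medians are given for L.J. versus control. The list medians then lay between -0.05 and 0.14, beside 0.03 over all genes, and that of cysteine supply was 0.0043 (7 of 14 higher).

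Busulfan plus L.J. versus L.J. without L.J. replicate 2 had 16 of the 104 genes past limma, beside 10.8% of all genes, and the interaction had 4, Cbr1, Chac1, Mat1a and Cdo1, beside 2.77%. These comparisons share the same pair of L.J. libraries with L.J. versus control. In L.J. versus control without that library, 6 of 12 Kupffer cell and macrophage markers and 16 of 16 acute-phase genes passed, all higher. Over all genes tested, 14.4% passed as higher and 2.33% as lower in that fit. In the same fit 11 of 12 male-biased genes passed as lower and 9 of 10 tested female-biased genes as higher. The female-biased genes were low outside the L.J. group, with a sum of at most 63.55 FPKM in the controls. Whether they would pass the filter without the L.J. libraries was not tested. The count of 9 of 10 can therefore follow in part from the filter and from the library left out, and is a description only. The part of these groups of genes in the values above was not tested.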

How the data were processed

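RNA from 12 liver libraries, 3 in each of 4 groups placed by title, was compared. The authors deposited FPKM per gene; reads had been aligned to mm10 with Bowtie 0.12.2, per the submitters' processing notes, while for quantifier, annotation and use of strand the answer is not given in the sources used here. FPKM carry no counts, so depth is unknown. The 10786 of 21004 genes that reached 1 FPKM in 3 or more libraries were fitted on log2(FPKM + 1), which understates changes of low genes, with limma 3.58.1 in R 4.3.3. The fit had 4 group means, 8 residual degrees of freedom and a mean-variance trend. It was tested two-sided in 6 comparisons, with Benjamini-Hochberg adjustment over all genes tested and a threshold of 0.05. An exact permutation test of 3 against 3 libraries cannot go below 0.1 and was not used. The fit was tested on simulated data.

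The genes described and the pathway and marker lists were chosen with earlier results of these data known. All 10 genes are named; of each pathway list up to 4 called genes, those with the smallest p, and for each of the 10 the most alike gene. The genes counted as called without L.J. replicate 2 were named beyond that rule, after their values were seen. Keap1, Bach1 and Sqstm1, which were not called, were also named beyond it. Alternatives were another pseudocount, 2 other filters, 3 other scalings, eBayes without trend, a replicate block, only the libraries compared, and leaving out libraries. Same-numbered control and busulfan libraries deviated together (r = 0.399, 0.157 and 0.110), all over 0.1, a hint from the data and not from the labels; in the other 5 pairs of groups at least 1 number had an r of 0.1 or less.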

Additional observations from a re-analysis of the deposited data

How the results depend on the processing

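Of 1173 fold changes recomputed for the 9 genes in 6 comparisons, 2 became calls, both of Nqo1 without L.J. replicate 2, and 0 reversed with a call. Among fold changes that were not called, 102 changed sign and 27 moved by 1 SE or more. Nqo1 could not be tested with a filter of 5 FPKM. With the replicate number as a block, 0 of the 9 genes were called, Nqo1 had limma adjusted p of 0.168 and 0.337, and both agents against L.J. alone had 1 gene called in place of 3.

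Over all genes, L.J. versus control had 27 called (21 higher, 6 lower). That count was 11 with no filter, 112 with median scaling (50 higher, 62 lower), 63 with quantile normalization (29 and 34), 114 without the Mup genes (72 and 42), 0 with only the libraries compared and 7 without L.J. replicates 1 and 3. Busulfan plus L.J. versus L.J. had 1 called under each of the 3 scalings. Busulfan plus L.J. versus control had 0 in the reported fit, 1 with no filter, 3 with only the libraries compared and 3 without L.J. replicates 1 and 3. Busulfan plus L.J. versus busulfan had 1 with no filter, and busulfan versus control had 1 with only the libraries compared. The interaction had 1 with median scaling, 1 without the Mup genes and 2 without L.J. replicates 1 and 3. Without L.J. replicates 1 and 3 the L.J. group is 1 library, so those counts rest on the spread of the other groups. The cause of these moves was not tested.

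Leaving out 1 library at a time gave 0 to 1 called in busulfan versus control (1 without control replicate 1) and 0 to 0 in busulfan plus L.J. versus busulfan. It gave 1 to 1800 in L.J. versus control: 1800 without L.J. replicate 2, 5 without L.J. replicate 3, 70, 5 and 1 without control replicates 1, 2 and 3, and 17, 15 and 15 without the busulfan replicates. The range was 0 to 6 in busulfan plus L.J. versus control, 0 to 1164 for both agents against L.J. alone and 0 to 299 in the interaction, each highest without L.J. replicate 2. Of the 9 genes, 0 to 1 were called in L.J. versus control and 0 to 1 with both agents against L.J. alone. Of the 104 pathway genes, counted as an alternative added after seeing the data, 0 to 21, 0 to 16 and 0 to 4 were called in L.J. versus control, both agents against L.J. alone and the interaction. Under each of the 3 scalings 1 pathway gene, Rpe, was called in L.J. versus control (limma adjusted p 0.0416, 0.0491 and 0.0479). Without counts, the precision of low levels such as those of Nqo1 is unknown.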
